A study of Mus musculus with 10 samples.

Results

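The glucocorticoid receptor, the enzyme that makes its ligand inside cells and 8 genes that it classically switches on were followed in skin inflamed with imiquimod, with and without quinpirole. The members were taken by symbol and are Nr3c1, Hsd11b1, Tsc22d3, Fkbp5, Zbtb16, Sgk1, Dusp1, Klf9, Mt1 and Mt2. All 10 were among the 17016 gene symbols of the deposited table, and all 10 were among the 14548 that passed a filter on low values. The mice were female BALB/c, 10 to 11 weeks old, and RNA came from whole skin. A first group of 5 libraries came from mice with imiquimod, which activates the innate immune receptor TLR7, as a 5% cream on the shaved back daily for 5 days, and with 5 intraperitoneal injections of the DRD2 dopamine receptor agonist quinpirole over the same days. The other 5 libraries came from mice given the same imiquimod course and vehicle. The design thus asks what quinpirole changed in imiquimod-treated skin. Skin without imiquimod was not analysed here, nor was any level of corticosterone. Whether every sample is a different mouse is not stated in the labels, and a p-value here reflects sample-to-sample spread, which may be technical.

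Glucocorticoids are steroid hormones of the adrenal cortex, made in smaller amounts in skin as well, and they are a standard topical treatment of psoriasis. The receptor encoded by Nr3c1 waits in the cytoplasm in a complex with the chaperone Hsp90, enters the nucleus when it binds hormone and acts there on genes that carry its response element. Most of its classical targets also answer to other signals, among them stress kinases, zinc and the circadian clock.

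Promoter sequences are shown for 3 of the members whose windows held letters searched for. RefSeq windows on GRCm38.p6, the build of mm10, were read for the 250 bases before each annotated start. The 15 windows examined were those of 8 members, and the receptor gene was not among them. Sgk1 is shown because 1 of its 6 windows held the full palindromic glucocorticoid response element, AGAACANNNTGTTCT. Capitals in the Sgk1 line mark that element, found from 189 to 175 bases before the start, and a further copy of its outer hexamer, TGTTCT. The full element occurred in 3 of 32851 windows of the same length, 0.00913%, and the hexamer AGAACA on either strand in 16.1%; a full element also holds the hexamer on each strand. Mt1 and Mt2 are shown because they are neighbours whose levels moved together. Capitals in their lines mark matches, on either strand, to the core of the metal response element, searched as TGCACNC and TGCGCNC. At least 1 such core occurred in 21.4% of windows and at least 3 in 1.26%.

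Sgk1 (chr10:21993640-21993889, plus strand): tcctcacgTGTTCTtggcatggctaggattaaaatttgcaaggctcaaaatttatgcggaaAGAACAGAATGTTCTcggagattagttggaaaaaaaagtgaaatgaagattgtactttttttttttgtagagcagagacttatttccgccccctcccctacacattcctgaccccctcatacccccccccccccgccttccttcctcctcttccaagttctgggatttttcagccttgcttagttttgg
Mt1 (chr8:94178839-94179088, plus strand): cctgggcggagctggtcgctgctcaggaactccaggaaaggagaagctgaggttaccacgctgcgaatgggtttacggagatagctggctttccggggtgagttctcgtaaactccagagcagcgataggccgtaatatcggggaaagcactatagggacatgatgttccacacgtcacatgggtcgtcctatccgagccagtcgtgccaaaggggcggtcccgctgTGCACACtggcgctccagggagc
Mt2 (chr8:94172368-94172617, plus strand): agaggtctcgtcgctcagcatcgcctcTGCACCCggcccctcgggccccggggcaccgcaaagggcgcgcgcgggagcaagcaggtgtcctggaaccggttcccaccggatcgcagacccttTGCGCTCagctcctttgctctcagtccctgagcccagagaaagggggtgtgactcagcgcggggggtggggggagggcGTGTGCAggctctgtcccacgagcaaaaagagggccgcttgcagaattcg

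The Mt2 window held 3 metal response element cores and the Mt1 window 1. These counts hold for the printed windows alone. Bases after those annotated starts were not searched, so the counts do not rank the promoters of Mt1 and Mt2. The hexamer AGAACA was in none of the windows of Hsd11b1, Fkbp5, Dusp1, Klf9, Mt1 or Mt2, and in 1 of 3 windows of Tsc22d3. The Dusp1 window held 1 cyclic AMP response element, TGACGTCA, which 1.55% of windows hold, and 1 E-box, CACGTG, which 6.02% hold and which the Fkbp5 window and the printed Sgk1 window held as well. A match is a match of letters and not a demonstration of binding.

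Libraries held between 6763367 and 8361877 assigned reads, and 1 read was worth 0.119 to 0.146 normalized CPM, a count scaled to library size. Markers of whole skin were present, with summed levels of 8 basal keratinocyte genes from 9318 to 15820 CPM in quinpirole libraries and from 10230 to 17770 CPM in vehicle libraries. Hair shaft content differed widely within both groups, from 23.3 to 6892 CPM with quinpirole and from 18.6 to 7113 CPM with vehicle over 24 genes. All 24 had lower values with quinpirole, with a median log2 fold change of -1.59 and none at an unadjusted limma p under 0.05. Skeletal muscle markers had higher values with quinpirole, 3373 to 16400 CPM against 1580 to 6174 CPM over 18 genes. All 18 were higher, with a median log2 fold change of 1.17. At an unadjusted limma p under 0.05 were 15 of them, beside 6.92% of all tested genes with higher values. None was called by limma or edgeR, and DESeq2 called 3. In RNA from whole tissue, fewer cells of a type and less RNA per cell cannot be told apart.

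None of the 10 members passed the test between quinpirole and vehicle over the whole table (limma, adjusted p under 0.05), where 0.0206% of 14548 tested genes passed. EdgeR called none of the 10 either, with 0.0344% of all genes called, and DESeq2 called 1, Zbtb16, with 1.51% called. At an unadjusted limma p under 0.05 there were 3 members, Nr3c1 and Hsd11b1 with higher values and Zbtb16 with lower values in quinpirole skin, beside 6.92% of all tested genes with higher and 4.47% with lower values at that threshold, 11.4% in all. The groups overlapped for each of the 10 members, and did not overlap for 2.2% of all tested genes. The median log2 fold change of the 10 was 0.02, and that of all tested genes was -0.0021.

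**Figure D1:**
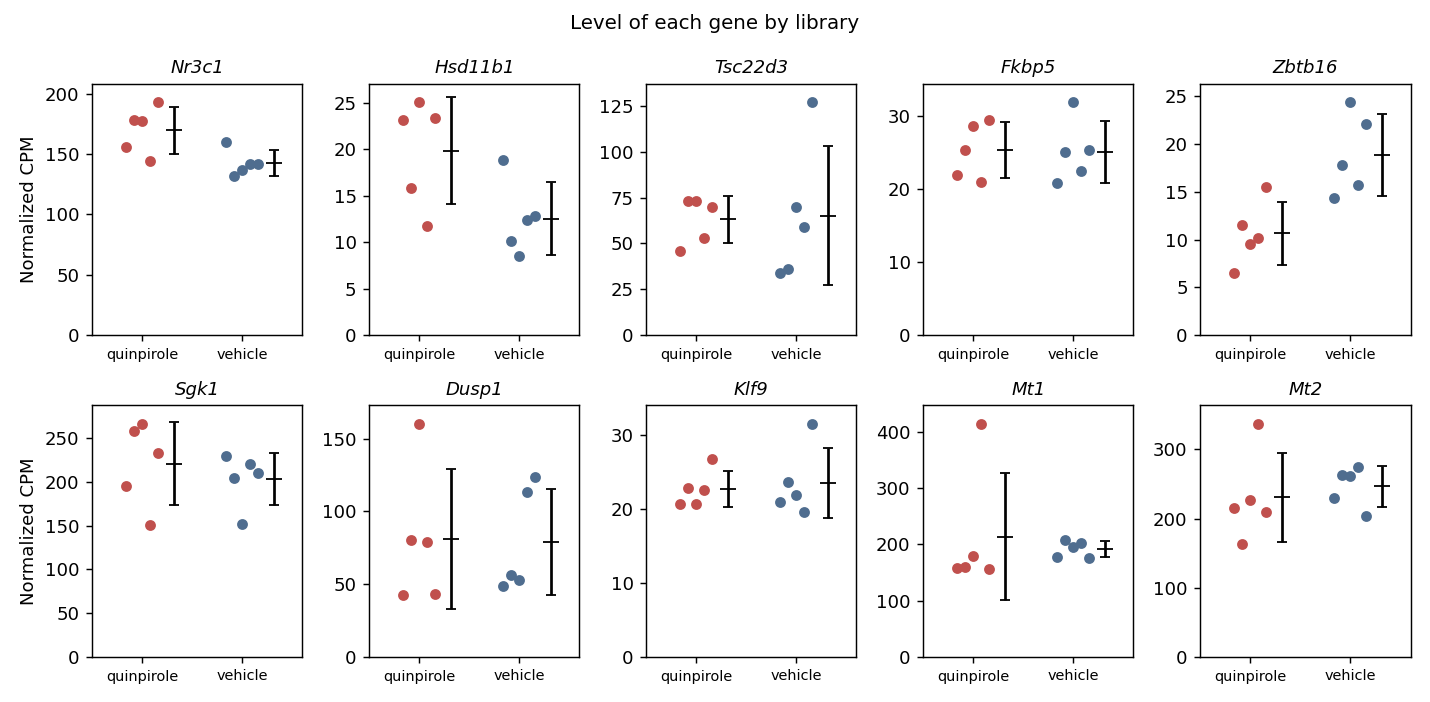
Normalized CPM of each member in the 10 libraries, quinpirole on the left and vehicle on the right of each panel; points are libraries in the order of their replicate numbers and bars give mean ± SD (n = 5 each). Values of Zbtb16 lie mostly below those of vehicle, from 6.54 to 15.5 against 14.3 to 24.4, and 1 quinpirole library stands far above the rest for Mt1, at 413.

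The receptor gene was abundant, at percentile 92.0 of all tested genes by level, and steady within groups. Among the members Sgk1, Mt1 and Mt2 had higher mean CPM in both groups. Nr3c1 measured 155.7, 178.6, 177.3, 144.2 and 193.0 CPM in quinpirole replicates 1 to 5, against 160.2, 131.9, 136.9, 142.0 and 141.5 CPM in vehicle replicates 1 to 5. Of the quinpirole libraries 3 lay above every vehicle library, and replicates 1 and 4 lay within the vehicle range. The means were 169.8 ± 19.5 CPM with quinpirole and 142.5 ± 10.7 CPM with vehicle (SD, n = 5 each), which gave a log2 change of 0.25 with SE 0.09 (95% interval 0.04 to 0.45, limma unadjusted p = 0.0229, adjusted p = 0.349). The SD of Nr3c1 within groups, 0.14 on the log2 scale, was among the smaller ones, at percentile 15.8 of all tested genes, where the median gene had 0.23. That rank is over genes of all levels, and genes of similar level were not compared separately. Nr3c1 codes for protein and runs on chromosome 18 of mm10 from 39410545 to 39519421, minus strand.

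Hsd11b1 encodes the reductase that regenerates active corticosterone from its inert 11-keto form. It measured 23.2, 15.9, 25.1, 11.7 and 23.4 CPM in quinpirole replicates 1 to 5, and 18.9, 10.1, 8.52, 12.4 and 12.9 CPM in vehicle replicates 1 to 5. Quinpirole replicates 1, 3 and 5 were above all vehicle libraries, while replicate 4 was below 3 of them. The means were 19.9 ± 5.77 CPM with quinpirole and 12.6 ± 3.94 CPM with vehicle (SD, n = 5 each), which gave a log2 change of 0.62 with SE 0.23 (95% interval 0.10 to 1.13, limma unadjusted p = 0.0226, adjusted p = 0.347). Without quinpirole replicate 4 the log2 fold change was 0.78 (limma adjusted p = 0.245). It spans chromosome 1 from 193221634 to 193264075, minus strand.

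Nr3c1 and Hsd11b1 moved together across libraries. Over 10 libraries Pearson's r was 0.83 (permutation p = 0.00436, 0.0981 adjusted over 45 pairs of members) and Spearman's rho was 0.83 (permutation p = 0.00446, 0.1 adjusted). Without the 2 libraries farthest from the median of Nr3c1, r was 0.92, and r of the deviations from the group means was 0.70. Quinpirole replicate 4 was low and vehicle replicate 1 was high for both genes within their groups.

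Both genes also followed the sebaceous gland and fibroblast markers. The mean log2 level of 10 sebaceous genes had r = 0.87 with Nr3c1 (permutation p = 0.00083, 0.0996 adjusted over 120 relations of members with marker lists), rho = 0.94 (permutation p = 0.00016, 0.0192 adjusted) and r = 0.91 without the 2 farthest libraries. With Hsd11b1 the mean had r = 0.81 (permutation p = 0.00347, 0.208 adjusted), rho = 0.79 (permutation p = 0.00815, 0.217 adjusted) and r = 0.64 without the 2 farthest. Of the 10 sebaceous genes 9 had higher values with quinpirole, 6 of them at an unadjusted p under 0.05, and their sum ran from 4809 to 7885 CPM with quinpirole and from 3047 to 5641 CPM with vehicle; none was at 0 in all libraries. With that mean as a covariate, added after the data were seen, the log2 fold change was 0.07 with SE 0.11 for Nr3c1 and 0.13 with SE 0.26 for Hsd11b1 (limma adjusted p = 0.875 and 0.901). The mean of 10 fibroblast genes had r = 0.77 with Nr3c1 (permutation p = 0.0135, 0.341 adjusted), rho = 0.67 (permutation p = 0.0385, 0.462 adjusted) and r = 0.71 without the 2 farthest libraries. With Hsd11b1 the fibroblast mean had r = 0.78 (permutation p = 0.011, 0.341 adjusted), rho = 0.65 (permutation p = 0.0487, 0.477 adjusted) and r = 0.715 without the 2 farthest. As a covariate it gave log2 fold changes of 0.16 for Nr3c1 and 0.35 for Hsd11b1 (limma adjusted p = 0.394 and 0.406). The fibroblast sum ran from 4889 to 7013 CPM with quinpirole and from 4534 to 7614 CPM with vehicle, with 6 of 10 genes higher and none at 0 in all libraries. Mast cell markers moved with Nr3c1 as well, with r = 0.73 (permutation p = 0.0179, 0.341 adjusted), rho = 0.82 (permutation p = 0.00562, 0.217 adjusted) and r = 0.47 without the 2 farthest libraries. Of 9 tested mast cell genes 7 had higher values with quinpirole, 5 of them at an unadjusted p under 0.05, and the list summed to 145.0 to 248.6 CPM with quinpirole and 95 to 202.0 CPM with vehicle; none was at 0 in all libraries. What part these cells have in the levels of Nr3c1 and Hsd11b1 was not tested. Of all tested genes 6.92% had higher values with quinpirole at an unadjusted limma p under 0.05.

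**Figure D2:**
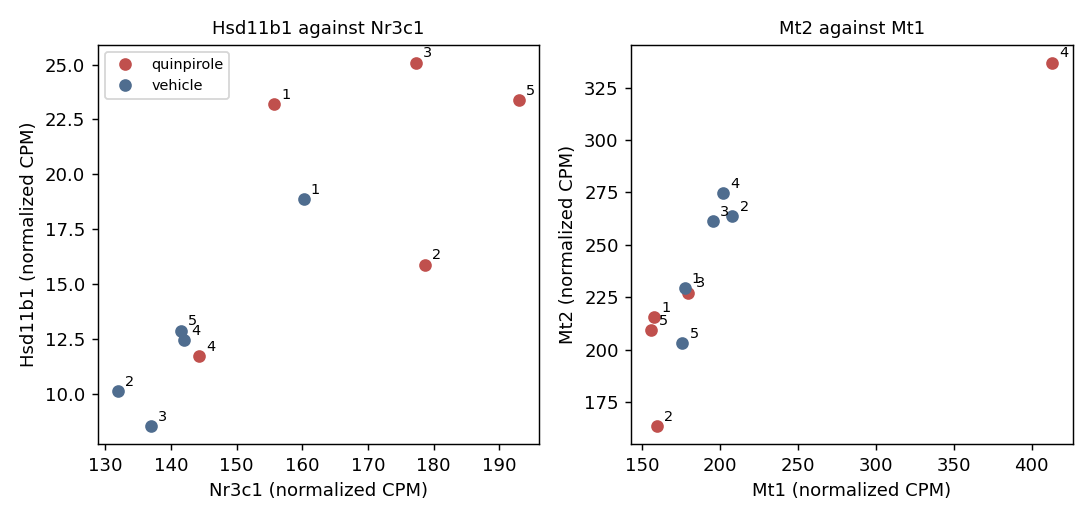
Level of Hsd11b1 against Nr3c1 and of Mt2 against Mt1 in normalized CPM, each point 1 library with its replicate number, quinpirole in red and vehicle in blue. Libraries high in Nr3c1 tend to be high in Hsd11b1 (r = 0.83 on the log2 scale), and quinpirole replicate 4 is the highest for both metallothioneins, at 413 CPM for Mt1 and 337 CPM for Mt2.

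Tsc22d3 and Fkbp5, which are widely read as markers of receptor activity, did not pass the test. Tsc22d3 encodes GILZ, a leucine zipper protein that restrains NF-kB and AP-1. It measured 45.9, 73.4, 73.1, 53.2 and 69.9 CPM in quinpirole replicates 1 to 5, and 33.7, 36.2, 69.7, 59.0 and 127.0 CPM in vehicle replicates 1 to 5. The quinpirole libraries lay inside the range of the vehicle libraries, which spanned 3.77-fold from replicate 1 to replicate 5. The means were 63.1 ± 12.7 CPM with quinpirole and 65.1 ± 37.8 CPM with vehicle (SD, n = 5 each), and the log2 fold change was 0.10 (95% interval -0.57 to 0.78, limma adjusted p = 0.935). Leaving out vehicle replicate 5 gave 0.38 on the log2 scale, SE 0.23 (limma adjusted p = 0.456), and without vehicle replicate 1 it was -0.09. The interval leaves room for a change of either sign.

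Fkbp5 encodes FKBP51, a co-chaperone of Hsp90 that lowers the hormone affinity of the receptor and is itself induced by it. Its levels were 21.9, 25.3, 28.6, 21.0 and 29.4 CPM in quinpirole replicates 1 to 5, and 20.7, 25.1, 31.8, 22.5 and 25.3 CPM in vehicle replicates 1 to 5. All quinpirole values fell within the vehicle range. The means were 25.3 ± 3.83 CPM with quinpirole and 25.1 ± 4.23 CPM with vehicle (SD, n = 5 each). The log2 fold change of 0.01 had a 95% interval of -0.28 to 0.31 (limma adjusted p = 0.985), among the narrower intervals of the members. Over the alternatives it ran from -0.05 to 0.11.

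Zbtb16 had the smallest p of the members. It encodes PLZF, a zinc finger repressor that glucocorticoids induce and that innate-like lymphocytes also need. It measured 6.54, 11.5, 9.54, 10.2 and 15.5 CPM in quinpirole replicates 1 to 5, and 14.3, 17.8, 24.4, 15.7 and 22.1 CPM in vehicle replicates 1 to 5. Of the quinpirole libraries 4 lay below every vehicle library, and replicate 5 lay above vehicle replicate 1. The means were 10.7 ± 3.26 CPM with quinpirole and 18.9 ± 4.25 CPM with vehicle (SD, n = 5 each), which gave a log2 change of -0.79 with SE 0.21 (95% interval -1.24 to -0.34, limma unadjusted p = 0.00247, adjusted p = 0.217). By p it ranked 164 of 14548 tested genes. DESeq2 called it at an adjusted p of 0.0318, with a log2 fold change of -0.83, and edgeR did not, at an adjusted p of 0.224 and -0.84. These values rest on 55 to 120 reads in quinpirole libraries and 114 to 186 reads in vehicle libraries.

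The lower values of Zbtb16 kept their sign in each of 26 alternatives, from -1.03 with the skeletal muscle mean as a covariate to -0.62 with a pseudocount of 5. With the hair shaft mean as a covariate the log2 fold change was -0.88 (limma adjusted p = 0.139), with the sebaceous mean -0.75 (0.394) and with the fibroblast mean -0.73 (0.188). T cell markers summed to 26.9 to 58.9 CPM with quinpirole and 24.5 to 48.1 CPM with vehicle, with 3 of 9 tested genes higher and none in the table at 0 in all libraries. Endothelial markers had 8 of 10 genes lower, 4 of them at an unadjusted p under 0.05, and summed to 142.7 to 265.8 CPM with quinpirole and 168.8 to 344.1 CPM with vehicle, with none at 0 in all libraries. Of all tested genes 4.47% had lower values at that threshold. The r of Zbtb16 with the endothelial mean was 0.39 (permutation p = 0.267, 0.902 adjusted over 120 relations), rho was 0.38 (permutation p = 0.279, 0.887 adjusted), r was 0.30 without the 2 farthest libraries and -0.03 over deviations from the group means. With the sebaceous mean Zbtb16 had r = -0.57 (permutation p = 0.0878, 0.517 adjusted) and rho = -0.62 (permutation p = 0.0597, 0.477 adjusted). That r was -0.26 without the 2 farthest libraries and -0.07 over deviations from the group means. With the fibroblast mean r was -0.45 (permutation p = 0.188, 0.808 adjusted). Zbtb16 spans chromosome 9 from 48654297 to 48836222, minus strand.

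**Figure D3:**
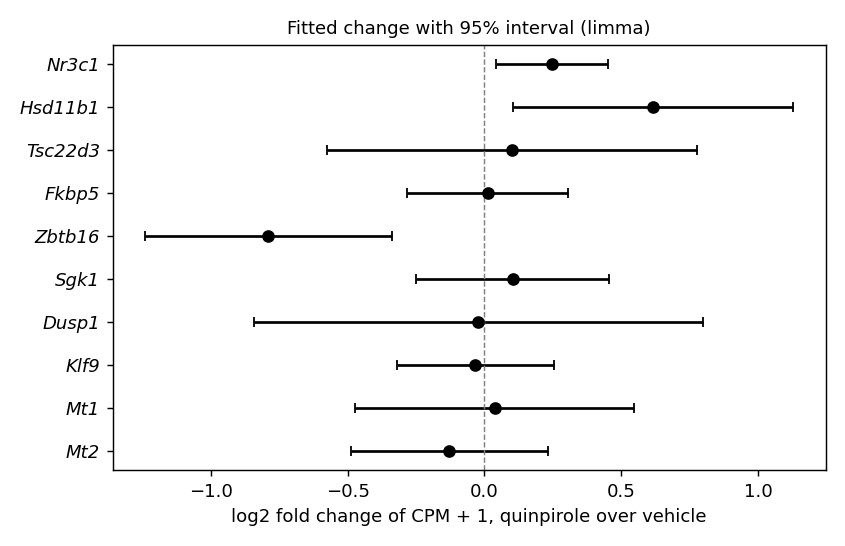
Fitted log2 fold change of CPM plus 1, quinpirole over vehicle, with its 95% interval from limma for each member. The intervals of Nr3c1, Hsd11b1 and Zbtb16 exclude 0 before adjustment and the other 7 include it; the interval is narrowest for Nr3c1 and widest for Dusp1, from -0.84 to 0.80.

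Sgk1 and Dusp1 are signalling enzymes that the receptor shares with other inputs. Sgk1 is a kinase that controls ion channels and transporters and is also induced by mineralocorticoids and growth factors. It measured 195.8, 257.8, 266.2, 151.3 and 232.9 CPM in quinpirole replicates 1 to 5, and 229.1, 204.9, 151.9, 220.7 and 210.2 CPM in vehicle replicates 1 to 5. The groups overlapped broadly, and the lowest library of each, quinpirole replicate 4 and vehicle replicate 3, stood at nearly the same level. The means were 220.8 ± 47.5 CPM and 203.4 ± 30.3 CPM for quinpirole and vehicle (SD, n = 5 each). Their log2 fold change was 0.10 (95% interval -0.25 to 0.46, limma adjusted p = 0.851).

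Dusp1 encodes a phosphatase that switches off the p38 and JNK kinases, and it is both a glucocorticoid target and an immediate-early gene. It measured 42.5, 80.5, 160.1, 78.8 and 43.3 CPM in quinpirole replicates 1 to 5, and 48.5, 56.5, 52.5, 113.2 and 124.0 CPM in vehicle replicates 1 to 5. The spread within both groups was far larger than the difference between them. The log2 fold change was -0.02 with SE 0.38 (95% interval -0.84 to 0.80, limma adjusted p = 0.990), and the SD within groups, 0.71 on the log2 scale, was at percentile 97.0 of all tested genes. Dusp1 followed the mean of 17 immediate-early genes over the 10 libraries, with r = 0.90 (permutation p = 0.00064), rho = 0.90 (permutation p = 0.00079) and r = 0.83 without the 2 farthest libraries. This relation was the single one of its kind computed, and it was chosen after the values were seen. Fos, the best known of these genes, ran from 36.2 to 311.4 CPM in quinpirole libraries, with its highest value in replicate 3 as for Dusp1. In vehicle libraries Fos ran from 36.7 to 222.8 CPM and was highest in replicate 4, at 74.4 CPM in replicate 5, where Dusp1 was highest.

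Klf9 encodes a Kruppel-like factor that in human keratinocytes responds to both cortisol and the clock. It measured 20.7, 22.9, 20.7, 22.5 and 26.7 CPM in quinpirole replicates 1 to 5, and 20.9, 23.6, 21.9, 19.5 and 31.5 CPM in vehicle replicates 1 to 5. Apart from vehicle replicate 5, and to a lesser degree quinpirole replicate 5, the libraries were close to each other. The means were 22.7 ± 2.46 CPM with quinpirole and 23.5 ± 4.70 CPM with vehicle (SD, n = 5 each). The fitted log2 fold change was -0.03 (95% interval -0.32 to 0.25, limma adjusted p = 0.950). The sign turned without vehicle replicate 5, to 0.07.

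The metallothioneins Mt1 and Mt2 are small cysteine-rich proteins that bind zinc and copper, induced by metals, stress and glucocorticoids. On mm10 they are neighbours on the plus strand of chromosome 8, Mt2 from 94172664 to 94173568 and Mt1 from 94179082 to 94180327, with 5513 bases between. Mt1 measured 157.8, 159.6, 179.6, 413.3 and 155.9 CPM in quinpirole replicates 1 to 5, and 177.2, 207.9, 195.5, 201.8 and 175.8 CPM in vehicle replicates 1 to 5. Quinpirole replicate 4 stood far above every other library, and 3 of the other 4 quinpirole libraries lay below all vehicle libraries. The means were 213.3 ± 112.2 CPM with quinpirole and 191.6 ± 14.5 CPM with vehicle (SD, n = 5 each; log2 fold change 0.04, SE 0.23, limma adjusted p = 0.968). Without quinpirole replicate 4 the quinpirole mean was 163.3 ± 11.0 CPM (SD, n = 4) and the log2 fold change turned to -0.23 with SE 0.08 (limma adjusted p = 0.303).

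Mt2 measured 215.6, 163.7, 227.2, 336.8 and 209.4 CPM in quinpirole replicates 1 to 5, and 229.5, 263.6, 261.4, 274.7 and 203.3 CPM in vehicle replicates 1 to 5. Its pattern was close to that of Mt1, with quinpirole replicate 4 the highest of all libraries for both. The log2 fold change was -0.13 (95% interval -0.49 to 0.23, limma adjusted p = 0.815), and -0.27 without quinpirole replicate 4. Across the 10 libraries Mt1 and Mt2 had r = 0.83 (permutation p = 0.0003, 0.0135 adjusted over 45 pairs), rho = 0.88 (permutation p = 0.0016, 0.0720 adjusted) and r = 0.80 without the 2 farthest libraries. It was the single pair of members whose Pearson correlation passed 0.05 after adjustment. The ratio of Mt1 to Mt2 was 0.732, 0.975, 0.791, 1.23 and 0.745 in quinpirole replicates 1 to 5, and 0.772, 0.789, 0.748, 0.735 and 0.865 in vehicle replicates 1 to 5 (exact two-sided permutation p = 0.341 on the log scale). These ratios of CPM are not corrected for transcript length, and how any reads shared between related metallothionein genes were divided is not given in the sources used here, so the split between them is uncertain.

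**Figure D4:**
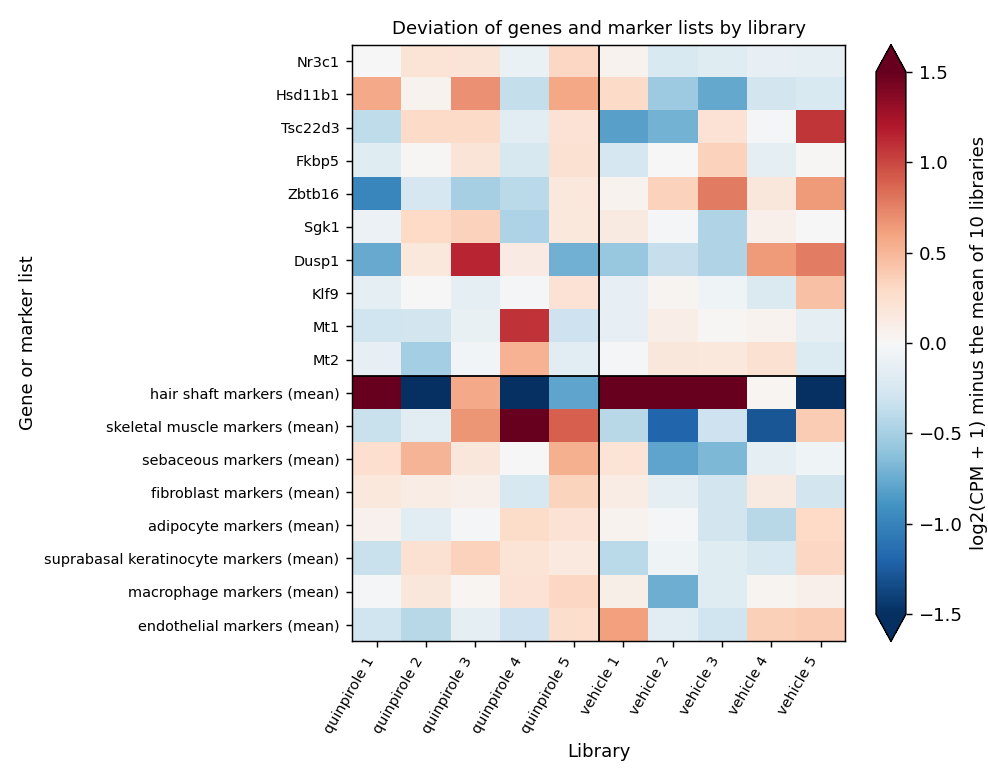
Deviation of log2(CPM + 1) from the mean of the 10 libraries for each member and for the mean of 8 marker lists, with quinpirole libraries left of the line and vehicle libraries right of it; colours saturate at 1.5 in either direction. Mt1 is high in quinpirole replicate 4, Dusp1 in quinpirole replicate 3 and Tsc22d3 in vehicle replicate 5, and no library is high or low for all members.

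The members did not move as a block. Of 45 pairs 24 had a positive r, with a median of 0.01. Tsc22d3 and Fkbp5 had r = 0.51 (permutation p = 0.135, 0.520 adjusted), rho = 0.67 (permutation p = 0.0397, 0.268 adjusted) and r = 0.56 without the 2 farthest libraries. Nr3c1 and Sgk1 had r = 0.67 (permutation p = 0.0374, 0.270 adjusted), rho = 0.70 (permutation p = 0.0314, 0.268 adjusted) and r = 0.61 without the 2 farthest libraries. Some negative pairs were of like size. Sgk1 had r = -0.69 with Mt2 and -0.65 with Mt1 (permutation p = 0.0274 and 0.0323, both 0.270 adjusted). Without the 2 farthest libraries these were -0.40 and -0.21. Hsd11b1 and Zbtb16 had r = -0.66 (permutation p = 0.039, 0.270 adjusted), and -0.46 without the 2 farthest libraries. Tsc22d3 had r = -0.61 with the hair shaft mean (permutation p = 0.0589, 0.476 adjusted over 120 relations), rho = -0.58 (permutation p = 0.0882, 0.623 adjusted) and r = -0.58 without the 2 farthest libraries. With the mean of the suprabasal keratinocyte markers Tsc22d3 had r = 0.70 (permutation p = 0.0228, 0.341 adjusted). There rho was 0.79 (permutation p = 0.00843, 0.217 adjusted), and r was 0.51 without the 2 farthest libraries.

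Levels per length set the members in order. In CPM per kilobase of merged exons, Mt2 averaged 392 ± 109 with quinpirole and 419 ± 50.1 with vehicle, and Mt1 171 ± 90.1 and 154 ± 11.7. Sgk1 followed at 45 ± 9.69 and 41.5 ± 6.17, then Dusp1 at 24.5 ± 14.5 and 23.9 ± 11.0, Nr3c1 at 22.1 ± 2.54 and 18.5 ± 1.39, and Tsc22d3 at 14.5 ± 2.93 and 15.0 ± 8.70 (SD, n = 5 each, quinpirole before vehicle). The spread of Dusp1 overlapped that of Nr3c1 and of Tsc22d3 in both groups, and that of Sgk1 in quinpirole skin. Nr3c1 stood above Tsc22d3 beyond their spread in quinpirole skin and overlapped it in vehicle skin. Klf9 at 4.72 ± 0.512 and 4.88 ± 0.977 overlapped Hsd11b1 at 4.67 ± 1.36 in quinpirole skin, while Hsd11b1 stood at 2.95 ± 0.927 in vehicle skin, near Fkbp5 at 2.67 ± 0.404 and 2.65 ± 0.446. Zbtb16, at 2.02 ± 0.618, had the lowest mean in quinpirole skin, where its spread overlapped that of Fkbp5. At 3.57 ± 0.805 its spread overlapped those of Klf9, Hsd11b1 and Fkbp5 in vehicle skin. Merged exons count every annotated isoform, so a gene with long alternative exons, such as Mt1, is set too low.

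Other genes of the pathway were described from lists that do not repeat the members. Of all tested genes 11.4% had an unadjusted limma p under 0.05, 6.92% with higher and 4.47% with lower values. DESeq2 called 1.51%. The counts per list stand beside these shares. Of 16 receptor partners and cofactors none was called by limma, edgeR or DESeq2, and 3 had an unadjusted p under 0.05, all with higher values in quinpirole skin. Nr3c2, the mineralocorticoid receptor, which also binds corticosterone, measured 7.36 ± 1.11 CPM with quinpirole and 4.74 ± 0.797 CPM with vehicle (log2 fold change 0.54, SE 0.14, limma adjusted p = 0.221), and its groups did not overlap. The co-chaperone Bag1 stood at a log2 fold change of 0.29 and the cofactor Nrip1 at -0.18 (limma adjusted p = 0.415 and 0.610). The Hsp90 genes Hsp90aa1 and Hsp90ab1 stood at 0.02 and 0.04.

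Among 9 tested genes of steroid synthesis, metabolism and export, 3 had an unadjusted p under 0.05, beside 11.4% of all tested genes. None was called by any of the tools. Hsd3b6, a 3-beta-hydroxysteroid dehydrogenase, measured 18.8 ± 7.35 CPM with quinpirole and 8.69 ± 3.94 CPM with vehicle (log2 fold change 1.05, SE 0.32, limma adjusted p = 0.248). Hsd11b2, whose product inactivates corticosterone and so opposes Hsd11b1, was near the edge of detection at 0.825 ± 0.539 CPM with quinpirole and 1.67 ± 0.680 CPM with vehicle (log2 fold change -0.57, limma adjusted p = 0.381). The efflux pump gene Abcb1b, whose product exports corticosteroids, stood at 0.45 (limma adjusted p = 0.237), while its paralogue Abcb1a had -0.36 (0.589). H6pd, which supplies NADPH to the Hsd11b1 enzyme, had -0.11 with SE 0.17.

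Further genes reported to be induced by glucocorticoids numbered 26 tested, of which 11 had higher and 15 had lower values, with a median log2 fold change of -0.08. None was called by limma, edgeR or DESeq2, and 5 had an unadjusted p under 0.05, 4 of them lower. Of all tested genes 11.4% passed that threshold, 4.47% with lower values. The lower ones were the efferocytosis receptor Mertk at -0.69 (limma adjusted p = 0.237), the G protein regulator Rgs2 at -0.51 (0.267), the lipase inhibitor Angptl4 at -0.58 (0.291) and the mTOR inhibitor Ddit4 at -0.43 (0.408). Mertk was below all vehicle libraries in each quinpirole library, with 3.56 to 7.87 CPM against 8.81 to 13.6 CPM.

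Inflammatory genes that glucocorticoids repress went both ways. Of 14 tested, 8 had higher and 6 had lower values, with a median of 0.12, and none was called by limma or edgeR. At an unadjusted p under 0.05 there were 4, beside 11.4% of all tested genes. The monocyte chemokine Ccl2 measured 15.9 ± 8.50 CPM with quinpirole and 6.33 ± 2.0 CPM with vehicle (log2 fold change 1.14, SE 0.31, limma adjusted p = 0.227), its groups did not overlap, and DESeq2 called it. The related chemokine Ccl7 had 1.1 (limma adjusted p = 0.277). The prostaglandin synthase Ptgs2 had -0.95 (0.433) and the protease Mmp9 -0.82 (0.388).

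Of the other metallothionein and zinc genes 6 were tested, all 6 with lower values, a median of -0.30 and none with an unadjusted p under 0.05 or called by edgeR or DESeq2. The zinc exporter Slc30a1, a target of the same metal-sensing factor as the metallothioneins, had -0.34 with SE 0.19, and that factor, Mtf1, had -0.01 with SE 0.12. Slc39a10, Slc39a14 and Slc30a4, which encode zinc transporters, had -0.66, -0.26 and -0.11 (limma adjusted p = 0.546, 0.638 and 0.763). Slc39a10 and Slc30a1 were highest in vehicle replicates 3 and 2 and quinpirole replicate 1, the libraries with the most hair shaft RNA. Slc39a10 measured 438.6, 429.1 and 272.1 CPM there. Slc30a4 was lowest in quinpirole replicate 1, at 93.4 CPM. What part hair content has in the lower values was not tested. Among 15 tested relatives of the members, such as other dual-specificity phosphatases and Kruppel-like factors, none was called by any of the tools and 1 had an unadjusted p under 0.05, the phosphatase Dusp2 at -0.77 (limma adjusted p = 0.385). Zbtb7b, Tsc22d1 and Klf13 had 0.18, -0.14 and -0.17.

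Immediate-early and clock genes share regulators with several members. Of 17 immediate-early genes none was called by limma or edgeR, and 1, Egr2, had an unadjusted p under 0.05. Egr2 stood at 0.64 on the log2 scale (limma adjusted p = 0.195), was higher in each quinpirole library than in all vehicle libraries and was called by DESeq2. Ier5, Myc and Jund had -0.23, 0.27 and 0.19 (limma adjusted p = 0.544, 0.639 and 0.668). Of 16 clock genes 13 had higher values with a median of 0.41, and 1, Dbp, was called by limma and edgeR (log2 fold change 1.33, limma adjusted p = 0.0441). DESeq2 called 5, beside 1.51% of all tested genes. The limma call of Dbp was lost with the replicate block, without both libraries numbered 4 and with the muscle mean as a covariate. It was also lost on leaving out vehicle replicate 1, 2 or 4 or any single quinpirole library. With the sebaceous mean as a covariate no gene with higher values in quinpirole skin was called. Tef, Nr1d2 and Per3 had 0.61, 0.50 and 0.65 (limma adjusted p = 0.181, 0.183 and 0.192), beside -0.03 for Klf9.

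**Figure D5:**
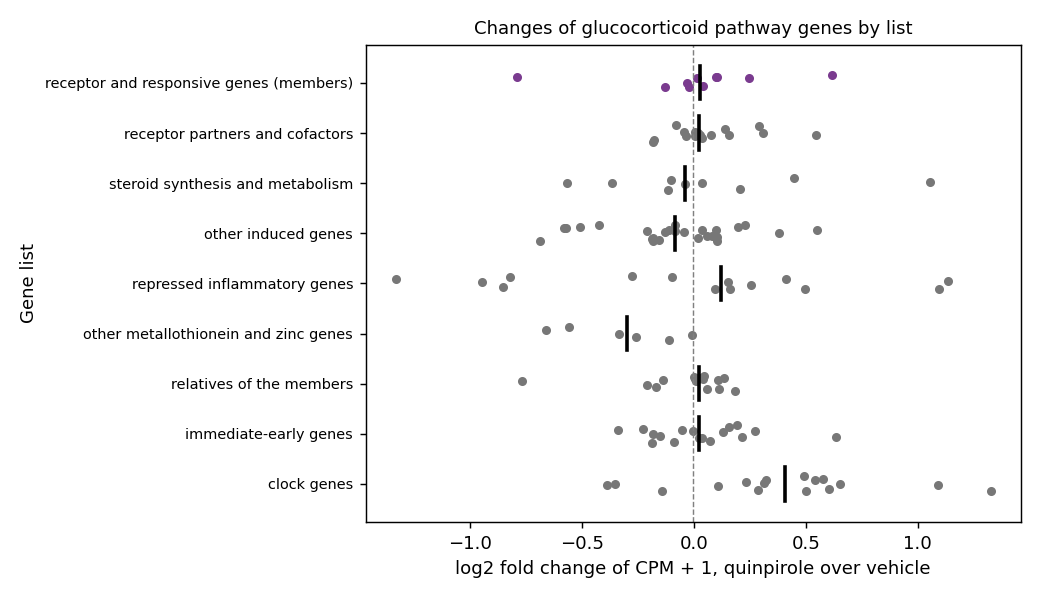
Log2 fold change of CPM plus 1, quinpirole over vehicle, for the tested genes of each list; points are genes, black bars are list medians and the dashed line is the median of all tested genes. The members have a median of 0.02 with Zbtb16 at -0.79 and Hsd11b1 at 0.62 on the outside, and the clock genes have a median of 0.41.

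The genes whose pattern over the 10 libraries was most like that of a member were found among 14547 others by Pearson's r of log2 values, as a description. For Nr3c1 they were Greb1 (0.95), Steap3 (0.95) and Cd34 (0.92). Cd34 encodes a surface protein of vessels, mesenchymal cells and hair follicle stem cells, and it measured 159.4 ± 30.6 CPM with quinpirole and 114.4 ± 17.1 CPM with vehicle (log2 fold change 0.47, limma adjusted p = 0.257). For Tsc22d3 they were Ang (0.92), Ifi27l2a (0.91) and 4930431F12Rik (0.90), and for Fkbp5 Gopc (0.90), Cebpg (0.89) and Hoxb9 (0.88). All libraries share their depth range and the varying hair content with these values.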

How the data were processed

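RNA from whole skin was depleted of ribosomal RNA and made into directional libraries, per the labels' protocols. Per the submitters' processing notes, the build was mm10 and the tools, listed without their roles, were edgeR, RSEM 1.3.0, Trimmomatic 0.38 and Bowtie2. Annotation and gene filter: not given in the sources used here. The authors deposited a normalized signal per gene. Divided by the smallest value of its library, 100% of values came out whole to within 1e-06, so reads could be recovered, and edgeR's CPM with TMM factors on these reads equalled the deposited values. No row had fewer than 10 reads in all. All value columns were matched to samples by their labels.

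Genes at 1 CPM or more in at least 5 libraries were tested on log2(CPM + 1) with limma 3.58.1, mean-variance trend, two-sided, no covariate, in R 4.3.3, with Benjamini-Hochberg adjustment over 14548 genes and calls at 0.05. Fold changes on this scale understate low genes. Alternatives used edgeR 4.0.16 and DESeq2 1.42.0 on recovered reads. Correlations used 100000 permutations. The steps were tested on simulated data. Genes named are the members, up to 4 genes with the smallest p in each pathway list, and the 3 genes most like Nr3c1, Tsc22d3 and Fkbp5; Hsp90aa1, Hsp90ab1, H6pd, Mtf1 and Fos were added after their values were seen. A gene that this rule would name is not reported here. Members and lists were chosen with earlier results of these data known. No batch labels were used. Promoter windows of Nr3c1 and Zbtb16 were not examined. Chi-square per gene between libraries of the same group was 6.23 or more, against about 1 from sampling noise alone, so no library repeated another. Figures were drawn with matplotlib 3.10.9.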

Additional observations from a re-analysis of the deposited data

Results flagged for a closer look

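Within groups of 5 libraries, 84 groups of values from 42 genes were examined for a lone library far from the others. Of these 7 were found, where chance gives about 1 in 20 for normally distributed values. CPM need not be so distributed, and the genes other than members were picked for a small p. The rate is thus a rough guide, and whether 7 is an excess was not tested. Mt1 was 413.3 CPM in quinpirole replicate 4, against 155.9 to 179.6 CPM in the other quinpirole libraries. In the same library Ccl7 was 45.4 CPM, against 11.6 to 18.9 CPM in the other quinpirole libraries. Tef and Per3 were highest in quinpirole replicate 2, at 106.9 and 93.1 CPM, against 59.3 to 71.8 CPM and 52.6 to 57.9 CPM in the other 4. In vehicle replicate 2, Hsd11b2 was 2.85 CPM against 1.12 to 1.57 CPM in the other vehicle libraries, and Ier5 was lowest at 45.4 CPM against 55.5 to 58.4 CPM. Angptl4 was 59.3 CPM in vehicle replicate 1, against 33.3 to 38.7 CPM in the other vehicle libraries.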

How the results depend on the processing

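Nr3c1, Hsd11b1 and Zbtb16 kept their sign in each of 26 alternatives, with log2 fold changes of 0.07 to 0.30, 0.13 to 0.79 and -1.03 to -0.62, and the median of the members lay between -0.21 and 0.13. No member was called in any alternative but DESeq2, which called 1. The sign turned as follows. Tsc22d3 was -0.0509 by edgeR and -0.0465 by DESeq2, and -0.12, -0.24 and -0.0611 with the hair shaft, skeletal muscle and sebaceous means as covariates; leaving out single libraries gave -0.0897 to 0.38. Dusp1 was 0.0307 by edgeR, 0.0364 by DESeq2, 0.10 without both libraries numbered 4 and 0.13 with the fibroblast covariate, and -0.31 to 0.17 without single libraries. Mt1 was -0.038 and -0.29 with the hair shaft and muscle covariates, -0.21 without both libraries numbered 4 and -0.23 to 0.12 without single libraries. Fkbp5 was -0.0182 with the muscle covariate and -0.0505 to 0.098 without single libraries, and Klf9 was 0.0138 with the fibroblast covariate and -0.0915 to 0.0734 without single libraries. Sgk1 was -0.20 and -0.0621 with the sebaceous and fibroblast covariates, and Mt2 0.16 with the sebaceous covariate. Those 2 covariates were chosen after seeing the data. The cause of these turns was not tested.

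Over the whole table limma called 3 genes. The count was 5 with a pseudocount of 0.1, 6 with no filter, 5 with DESeq2 size factors, 9 without the variance trend, 5 by edgeR and 219 by DESeq2. It was 14, 0, 1 and 9 with the hair shaft, muscle, sebaceous and fibroblast covariates, 0 without both libraries numbered 4 and 0 to 10 without single libraries. Same-numbered libraries had correlations of deviations from -0.24 to 0.22, and 1 of 10 libraries correlated best with its own number. Pairing by number was thus not seen, though so few libraries cannot exclude it. With the replicate block 0 genes and 0 members were called, and 1576 genes had an unadjusted limma p under 0.05. At this depth a read is worth over 0.1 CPM, which limits genes near that level such as Hsd11b2.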
